A study of Mus musculus with 240 samples.

Results

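The synaptic vesicle release genes are the mouse genes of the synaptotagmin (Syt), syntaxin (Stx), syntaxin-binding protein (Stxbp), vesicle-associated membrane protein (Vamp), complexin (Cplx), Rab3 and synapsin (Syn) families, together with Snap23, Snap25, Snap29, Snap47 and Snap91. They were chosen by gene name alone, and 57 of the 62 genes with such a name had a mean of at least 1 CPM (reads of the gene scaled to library size) over 143 libraries. These 57 genes are described below among the 14764 genes above that limit, out of 55414 in the count table. Syt15 (mean 1.05 CPM) and Vamp5 (1.44 CPM) lay just inside the limit. Vamp9 (0.390 CPM) and Stx11 (0.158 CPM) lay just outside it, as did Cplx4, Syt8 and Stx19 at lower values, and no library held more than 33 reads of any of these 5 genes.

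Poly(A) RNA was sequenced from brain punches of naive mice, taken in prelimbic cortex (PrL), in the core of the nucleus accumbens (NAcc) and in the amygdala at its central nucleus (CeA). The animals were of the 8 inbred founder strains of the Collaborative Cross, and no group was treated. The age was 8 weeks by the series text, while the methods of the study give an older adult age. They were C57BL/6J (B6), A/J (AJ), 129S1/SvImJ (S129), NOD/LtJ (NOD) and NZO/HILtJ (NZO), which are laboratory strains, and WSB/EiJ (WSB), PWK/PhJ (PWK) and CAST/EiJ (CAST), which are wild-derived. NOD/LtJ is the name in the series text, and the methods of the study name NOD/ShiLtJ. Each strain gave 6 mice, 3 females and 3 males, so each group held 6 libraries apart from NAcc B6, which held 5. The replicate number is the mouse, and a mouse gave all 3 regions. B6 and PWK are the strains of high ethanol preference, and each was compared with the mean of the other 6 strains, called Low_Average.

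Neurotransmitter is released when a docked vesicle fuses with the presynaptic membrane. The vesicle SNARE protein Vamp2 zips up with the target SNARE proteins Stx1a and Snap25, complexins hold the assembled complex, and the calcium sensors Syt1, Syt2 or Syt9 trigger fusion. Synapsins tether the reserve vesicles and Rab3 proteins mark vesicles ready to dock. Other syntaxins, Vamps and synaptotagmins serve fusion inside the cell, in dense-core vesicles or in cells other than neurons.

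Library totals ran from 14942820 to 33951616 counts (median 24456928), and levels are given as CPM after TMM scaling. The median standard error of a member's log2 fold change for B6 against Low_Average was 0.0945 in CeA, 0.0904 in NAcc and 0.0669 in PrL. As a check of the dissection, the summed CPM of 8 striatal marker genes was divided by that of 8 pallial glutamatergic marker genes. The log2 ratio had a median of 5.91 in NAcc (range 1.40 to 7.58), of 0.0104 in CeA (-2.33 to 6.23) and of -3.98 in PrL (-4.40 to -0.438). By this ratio 16 libraries lay nearest to the median of another region, 12 of CeA, 2 of NAcc and 2 of PrL. The CeA libraries that did so were 3 of B6, 3 of AJ, 2 of NOD and 1 each of S129, WSB, PWK and CAST. The marker list for central amygdala neurons summed to a median of 607 CPM in CeA, 738 CPM in NAcc and 274 CPM in PrL, so that it did not set CeA apart from NAcc. Oligodendrocyte markers had a median of 2835 CPM in CeA, 6015 CPM in NAcc and 1678 CPM in PrL. In bulk tissue a lower number of cells of a type and less RNA per cell cannot be told apart. Of the members, 15 share exon bases with a gene on the opposite strand, such as Syn1 with Araf and Rab3a with Mpv17l2, and the strand setting of the counting is not given in the sources used here, so reads of such pairs cannot be told apart.

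To compare genes with each other, CPM was divided by exon length in kb. Snap25, the target SNARE of the plasma membrane, had the highest level per length of the 57 genes, 328 CPM per kb averaged over the regions. Vamp2 followed with 320 CPM per kb, and among the next were Cplx2 with 298, Cplx1 with 260, Rab3a with 239, Syt11 with 193, Syt1 with 189 and Syn1 with 169 CPM per kb. These genes stood above the lowest members, Syn3 (1.63 CPM per kb), Vamp5 (0.531 CPM per kb) and Syt15 (0.203 CPM per kb). The order was not the same in each region. Snap25 measured 486 ± 74.9 CPM per kb in PrL (SD, n = 48), 280 ± 47.8 in CeA (n = 48) and 219 ± 41.1 in NAcc (n = 47), where Cplx2 at 313 ± 74.1 CPM per kb was above it. Stx1a measured 136 ± 18.9 CPM per kb in PrL and 15.9 ± 5.92 CPM per kb in NAcc.

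Stx1a, Snap25, Vamp2, Syt1 and Syn1 of the core machinery had their highest level in PrL and their lowest in NAcc, while Syt10, Syt2 and a small group of others ran the opposite way. The limma tests of the joint model over regions, strains, sexes and trays gave 41 members that differed between CeA and NAcc, 44 between CeA and PrL and 46 between NAcc and PrL. Against NAcc, 29 members were up-expressed in CeA and 12 down-expressed, where 32.5% of all genes tested were up and 36.8% down. Against PrL, 12 members were up-expressed in CeA and 32 down-expressed, where 36.4% of all genes were up and 37.1% down. Between NAcc and PrL, 13 members were higher in NAcc (42.9% of all genes) and 33 were lower (39.3% of all genes). The median log2 fold change of NAcc against PrL was -0.18 over the members and 0.02 over all genes tested. Region took a median of 36.0% of the variance of a member's log2 level and strain 13.3%, and over all genes tested the medians were 18.9% and 21.6%.

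**Figure D1:**
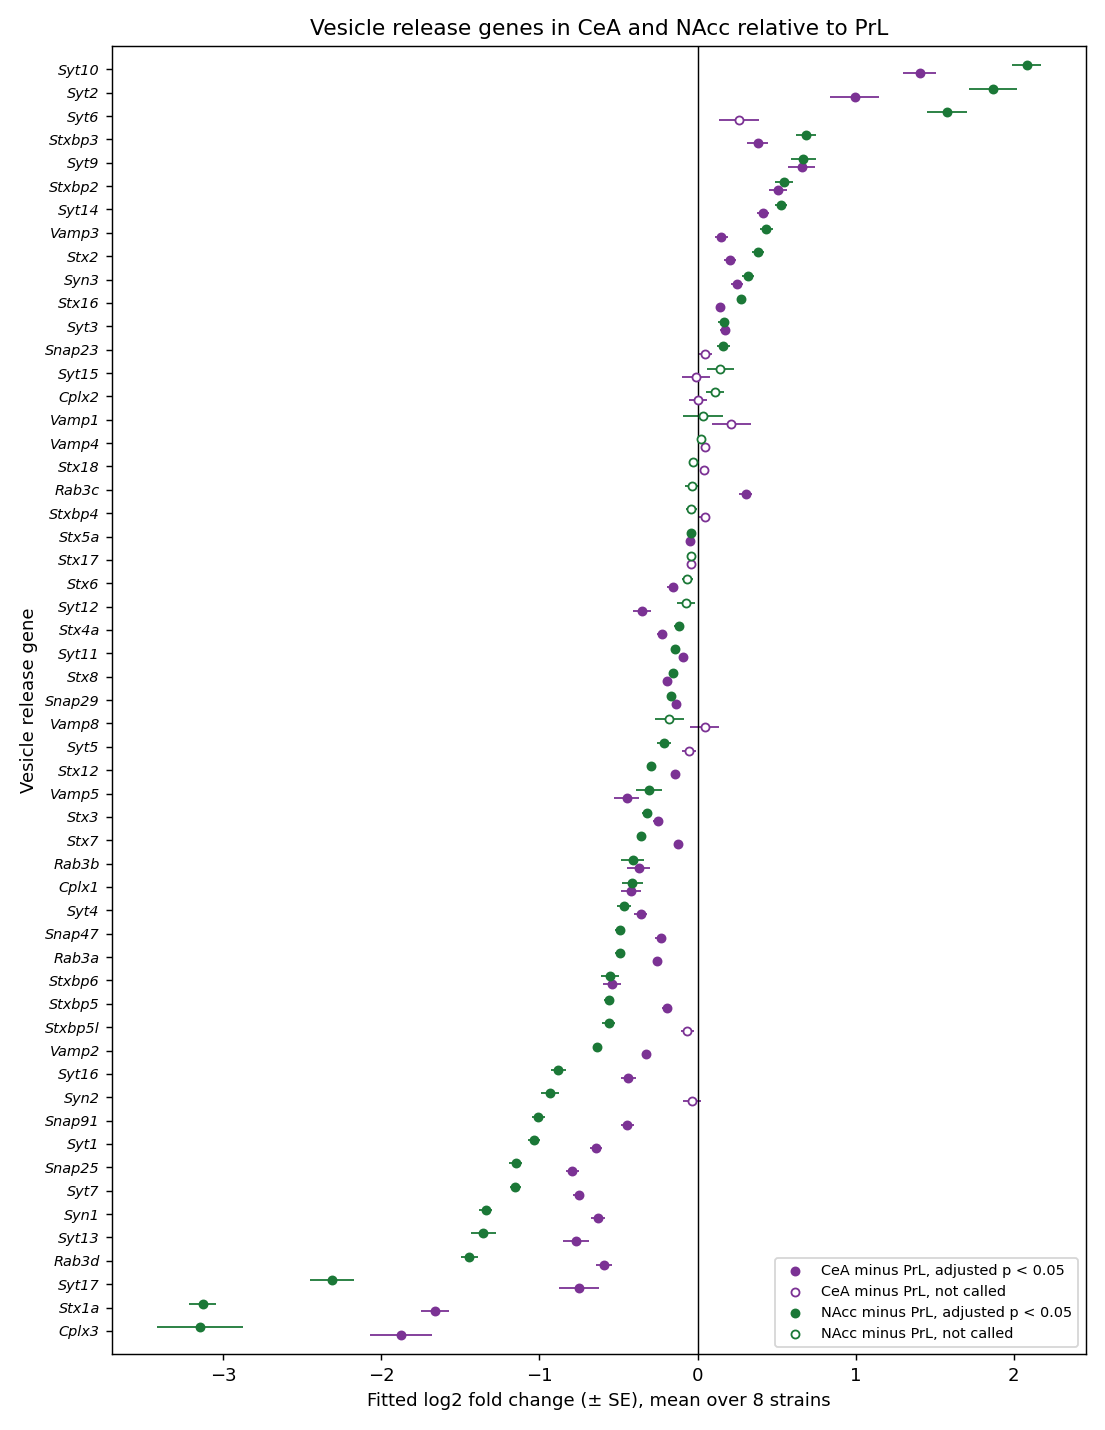
Fitted log2 fold change with its standard error for vesicle release genes (vertical axis), CeA minus PrL in purple and NAcc minus PrL in green, as the mean over 8 strains. Filled points passed an adjusted p of 0.05 in limma. Cplx3 and Stx1a lie farthest to the left at -3.15 and -3.13 in NAcc minus PrL, and Syt10 farthest to the right at 2.08.

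All 3 pairs of regions differed with PrL highest, CeA between and NAcc lowest for 22 members, an order held by 18.9% of all genes tested. Among these 22 were Snap25, Stx1a, Vamp2, Syt1, Syn1, Rab3a, Rab3d, Cplx3, Snap47, Snap91, Stx3, Stx7, Stx12, Stxbp5, Syt4, Syt7, Syt11, Syt13, Syt16 and Syt17. The opposite order, with NAcc highest and PrL lowest, was held by 7 members (19.4% of all genes), namely Syt2, Syt10, Syt14, Stx2, Stx16, Stxbp3 and Vamp3. Stx4a had all 3 pairs called with PrL highest and CeA lowest, and the other 27 members did not pass in every pair.

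Among the target SNAREs, Stx1a set the regions apart most. Its lowest, median and highest library were 179, 368 and 512 CPM in PrL, 31.5, 122 and 286 CPM in CeA and 27.8, 38.8 and 134 CPM in NAcc. All PrL libraries lay above all NAcc libraries, and CeA libraries reached into both. Stx1a was lower in NAcc than in PrL by a log2 fold change of -3.13 ± 0.09 (SE; adjusted p = 2.1e-62), and lower in CeA than in PrL by -1.66 ± 0.09 (adjusted p = 5.6e-36). Snap25 ran from 2285 to 4644 CPM in PrL (median 3255), from 1132 to 2911 CPM in CeA (median 1887) and from 1095 to 2695 CPM in NAcc (median 1452), with a log2 fold change of -1.15 ± 0.04 for NAcc against PrL.

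On the vesicle side, Vamp2 averaged 1492 ± 75.2 CPM in PrL (SD, n = 48), 1199 ± 145 CPM in CeA (n = 48) and 964 ± 84.2 CPM in NAcc (n = 47). The other synaptic vesicle SNARE, Vamp1, which is known from fast-firing neurons, averaged 98 ± 40.6 CPM in PrL, 112 ± 36.1 CPM in CeA and 118 ± 73.6 CPM in NAcc, and none of its region differences passed the test (adjusted p = 0.109 to 0.807). Its spread within NAcc was wide, from 29.2 CPM in a NZO library to 291 CPM in a WSB library. Vamp3, the Vamp of endosomes in most cell types, was higher in NAcc than in CeA (-0.29 ± 0.04 for CeA against NAcc) and in PrL (0.44 ± 0.04). Stxbp2 and Stxbp3, known from cells other than neurons, were higher in NAcc than in PrL (0.55 ± 0.06 and 0.69 ± 0.06).

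The 3 calcium sensors for fast release did not share a direction. Syt1 was lower in NAcc, with 837 to 1673 CPM (median 1060), than in PrL, with 1730 to 2517 CPM (median 2231), and no NAcc library reached the lowest PrL library (log2 fold change -1.03 ± 0.04, adjusted p = 7.3e-52). Syt2 was higher in NAcc, with 44.5 to 217 CPM (median 85.3), than in PrL, with 8.57 to 152 CPM (median 25.3), and here the libraries overlapped (1.87 ± 0.15, adjusted p = 3.5e-22). Syt9 averaged 20.3 ± 6.75 CPM in NAcc and 13.0 ± 5.19 CPM in PrL, a difference of 0.67 ± 0.08 (adjusted p = 3.5e-13). Syt10, a related synaptotagmin, was at 10.8 to 38.1 CPM in NAcc (median 24.0), 9.18 to 27.9 CPM in CeA (median 14.4) and 2.25 to 22.3 CPM in PrL (median 5.52), which made it the member with the largest rise from PrL to NAcc (2.08 ± 0.09, adjusted p = 1.2e-42). Syt7, a slow calcium sensor, Syt17 and Syt13, which does not bind calcium, were lower in NAcc than in PrL, by -1.15 ± 0.04, -2.31 ± 0.14 and -1.35 ± 0.08. Syt14 was higher in CeA and NAcc than in PrL (0.42 ± 0.04 and 0.53 ± 0.04). Syt6 was higher in NAcc than in either other region, by 1.58 ± 0.13 over PrL and with -1.31 ± 0.12 for CeA against NAcc.

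The synapsins, which tether vesicles to each other and to actin, separated as well. Syn1 averaged 816 ± 99.3 CPM in PrL, 534 ± 104 CPM in CeA and 324 ± 51.0 CPM in NAcc, and no NAcc library (249 to 482 CPM) reached the lowest PrL library (592 CPM). Syn2 averaged 825 ± 223 CPM in CeA and 820 ± 112 CPM in PrL, which did not pass the test (log2 fold change -0.03 ± 0.06, adjusted p = 0.593), and was lower in NAcc (429 ± 46.6 CPM). Syn3 was higher in NAcc than in PrL (21.7 ± 2.98 and 17.5 ± 2.78 CPM; 0.32 ± 0.04). Of the complexins, Cplx3, known from ribbon synapses and deep cortical neurons, fell from 14.2 ± 6.21 CPM in PrL to 3.78 ± 5.85 CPM in NAcc, and single NAcc libraries reached 29.0 CPM. Cplx1 was higher in PrL than in both other regions (-0.41 ± 0.07 for NAcc against PrL), while for Cplx2 no pair of regions passed the test (adjusted p = 0.0828 to 0.966) with means of 1416 to 1545 CPM. Of the Rab3 proteins, Rab3a and Rab3d were highest in PrL (-0.49 ± 0.03 and -1.44 ± 0.06 for NAcc against PrL), Rab3b was higher in PrL than in either region, and Rab3c was highest in CeA (652 ± 152 CPM against 518 ± 117 CPM in NAcc and 529 ± 120 CPM in PrL).

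Promoters are shown for 2 genes of the PrL-high order, Stx1a and Syn1, for Syt10 of the NAcc-high order, and for Stxbp4, the member with the largest share of variance between strains. They are the 250 bases upstream of the start in the RefSeq promoter table (GRCm38.p6), 5′ to 3′ on the gene's strand, matched by gene symbol. Capitals mark a cAMP response element (TGACGTCA) or a GC box (GGGCGG, or CCGCCC read on the opposite strand). Stx1a lies at chr5:135023232-135023481 (+), Syn1 at chrX:20920919-20921168 (-), Syt10 at chr15:89841861-89842110 (-) and Stxbp4 at chr11:90638109-90638358 (-).
Stx1a: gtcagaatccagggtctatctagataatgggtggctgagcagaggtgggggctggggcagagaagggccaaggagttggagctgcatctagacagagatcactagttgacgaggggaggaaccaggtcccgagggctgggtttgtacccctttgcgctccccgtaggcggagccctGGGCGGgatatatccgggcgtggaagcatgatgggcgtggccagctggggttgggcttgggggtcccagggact
Syn1: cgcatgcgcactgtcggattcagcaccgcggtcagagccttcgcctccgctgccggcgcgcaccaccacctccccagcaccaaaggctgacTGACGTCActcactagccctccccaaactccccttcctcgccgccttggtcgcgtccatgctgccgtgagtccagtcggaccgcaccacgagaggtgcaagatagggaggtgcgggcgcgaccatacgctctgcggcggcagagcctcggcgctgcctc
Syt10: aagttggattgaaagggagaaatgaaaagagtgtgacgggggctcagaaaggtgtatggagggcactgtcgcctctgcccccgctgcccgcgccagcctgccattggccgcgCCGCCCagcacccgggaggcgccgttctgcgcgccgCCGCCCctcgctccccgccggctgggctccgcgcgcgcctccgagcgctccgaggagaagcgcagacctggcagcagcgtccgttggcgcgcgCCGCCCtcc
Stxbp4: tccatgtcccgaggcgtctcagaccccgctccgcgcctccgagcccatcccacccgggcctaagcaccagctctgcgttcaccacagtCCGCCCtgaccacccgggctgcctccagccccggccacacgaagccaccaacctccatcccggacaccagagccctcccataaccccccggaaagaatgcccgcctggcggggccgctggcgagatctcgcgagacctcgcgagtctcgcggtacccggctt
The table held 56 promoters for 45 of the 57 members. Searched on both strands, the GC box was in 64.3% of the members' promoters and in 32.7% of 32851 promoters of the same length in the table. The cAMP response element was in 3.57% against 1.55%, namely in one promoter each of Syn1 and Stxbp3, and the TATA box (TATAAA) in 5.36% against 12.4%. The members had passed the limit of 1 CPM, while the promoters of the table were not limited to expressed genes. These shares are therefore from unlike sets, and the share among expressed genes was not counted. By gene, the GC box was in 10 of 14 matched genes with PrL highest, in 6 of 6 with NAcc highest and in 16 of 24 that were not called in every pair. No motif contains another.

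Within regions, Stxbp4, Stxbp2 and Syt15 were among the 8 members with the widest range of strain means in CeA, NAcc and PrL alike. The limma F-test over the 8 strains was passed by 45 members in CeA (78.9%), 33 in NAcc (57.9%) and 38 in PrL (66.7%), against 80.8%, 76.2% and 83.9% of all genes tested. It was passed in all 3 regions by 21 members and in no region by Syt11 and Vamp8, and this overlap was not counted over all genes. Of the 28 pairs of strains, taken over the 57 members, 416 comparisons were called in CeA, 301 in NAcc and 404 in PrL out of 1596 in each region, which is 26.1%, 18.9% and 25.3% where all genes gave 28.7%, 26.1% and 32.9%. The pair with the most called members was B6 and NOD in CeA (29 members, 35.7% of all genes), AJ and PWK in NAcc (21 members, 40.7% of all genes), and B6 with PWK or with WSB in PrL (22 members each, 44.8% and 35.4% of all genes). In CeA, B6 had the lowest fitted mean of the 8 strains for 16 of the 45 members past the F-test, and NOD the highest for 15. The share of all genes with B6 lowest or NOD highest was not counted, so these counts do not set the members apart from other genes.

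**Figure D2:**
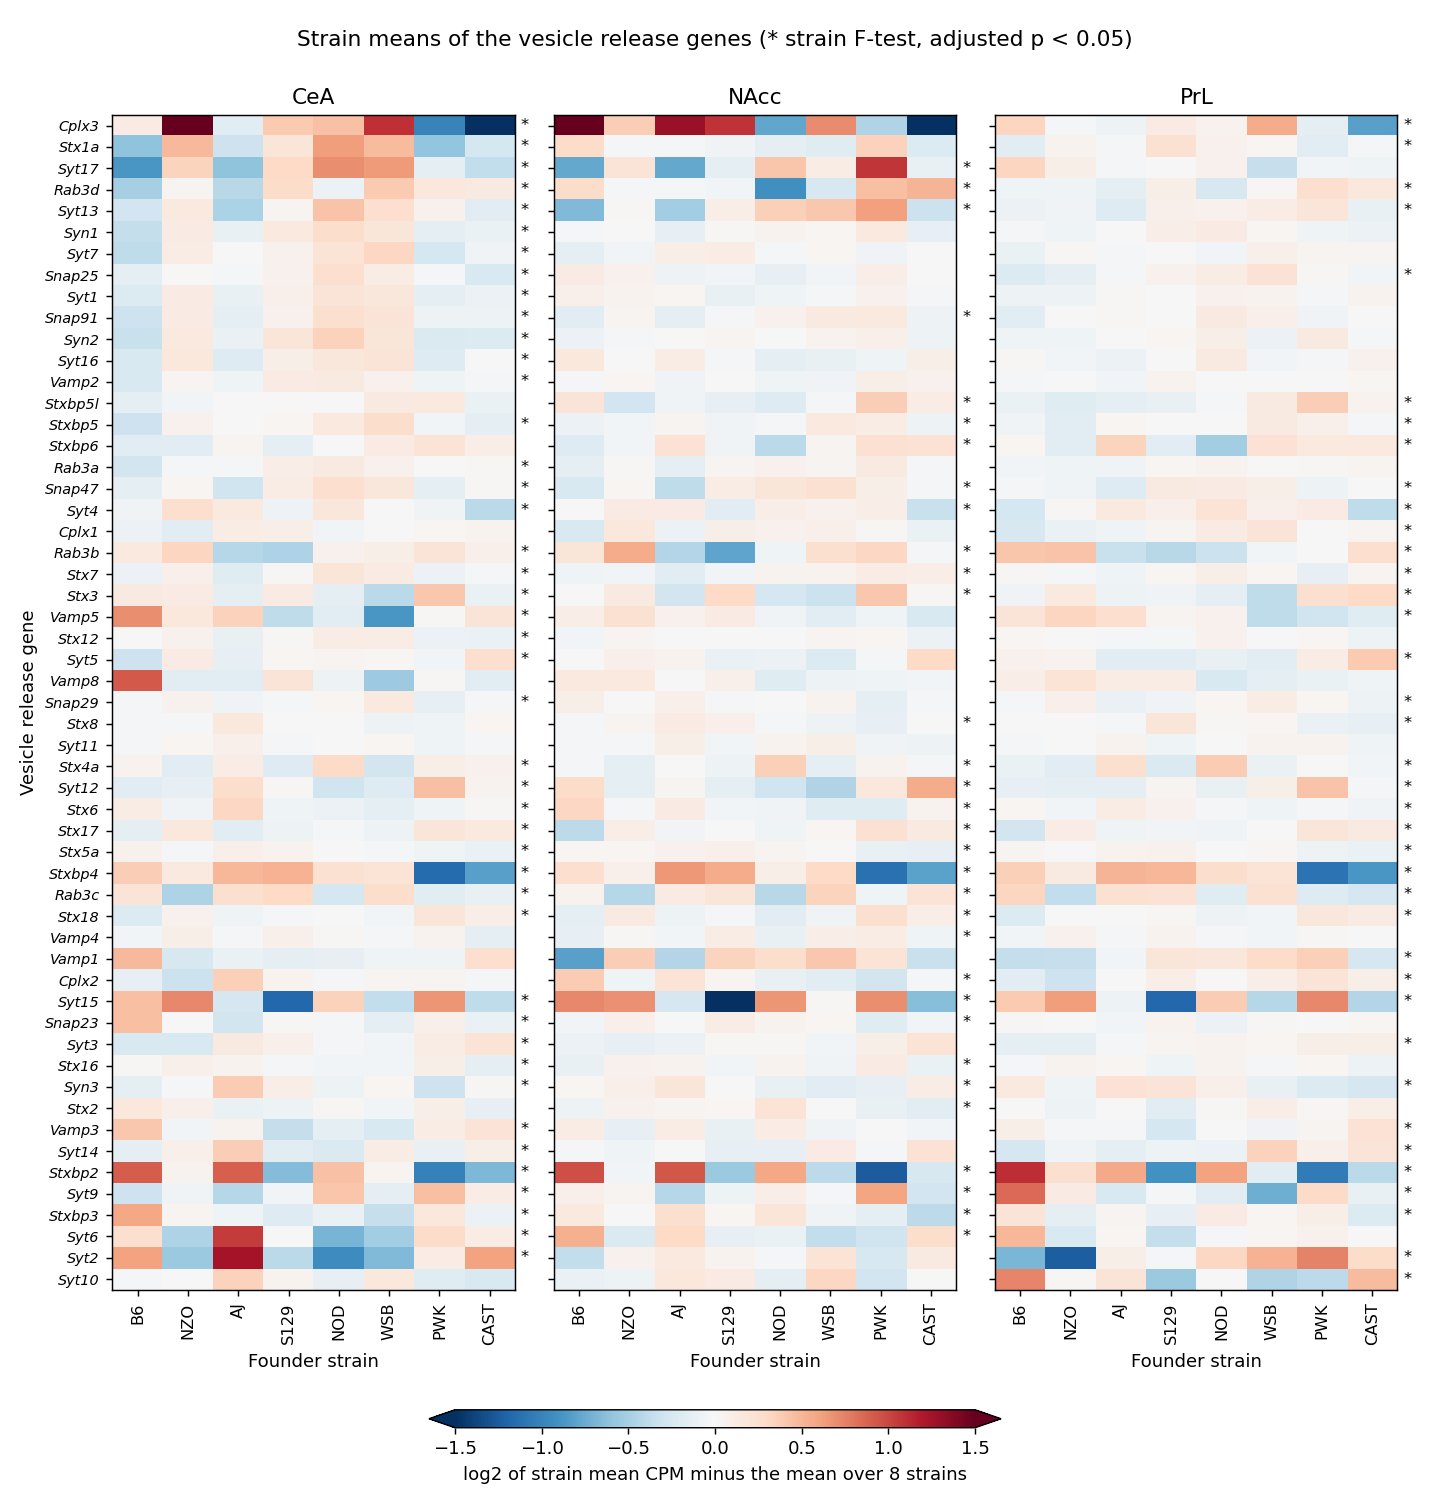
Heat map of strain means for vesicle release genes (rows, from lowest to highest NAcc minus PrL difference, top to bottom) in CeA, NAcc and PrL, as log2 CPM minus the mean over the 8 strains, with red above, blue below and colours saturating at the ends of the scale. Asterisks mark genes past the strain F-test. Stxbp4 is low in PWK and CAST in all 3 panels.

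Strain took the largest share of variance for Stxbp4 (92.1%), Stxbp2 (77.7%), Syt15 (72.3%), Stx17 (58.2%) and Stx3 (48.9%), and of these only Stx3 had over 10% between regions (20.3%). Stxbp4, a binding partner of syntaxin 4 known from insulin-stimulated vesicle traffic, had a low level in PWK and CAST. In CeA its lowest, median and highest libraries were 6.23, 8.87 and 14.4 CPM in PWK and 10.4, 11.6 and 15.6 CPM in CAST, while the other 6 strains had medians of 22.5 to 30.4 CPM. In NAcc the values were 7.41, 9.16 and 11.2 CPM in PWK and 9.76, 11.4 and 13.5 CPM in CAST, with medians of 20.9 to 31.5 CPM in the others, and in PrL 6.50, 9.80 and 12.0 CPM in PWK and 9.12, 11.4 and 12.6 CPM in CAST, with medians of 22.6 to 29.6 CPM elsewhere. No PWK or CAST library reached the lowest library of the other 6 strains in any region, and PWK and CAST overlapped with each other. Reads of every strain were aligned to a single reference, which derives from B6, and its part in these differences was not tested.

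Stxbp2, the Munc18 protein of granule release in blood and mast cells, was high in B6 and AJ and low in PWK and S129. Medians in CeA were 33.5 CPM in B6, 36.2 in AJ, 25.6 in NOD, 19.6 in NZO, 19.2 in WSB, 12.8 in CAST, 12.3 in S129 and 8.98 CPM in PWK. In NAcc the 5 B6 libraries had 40.0, 33.1, 36.9, 37.5 and 46.0 CPM, AJ ran from 29.0 to 46.1 CPM and PWK from 4.67 to 10.5 CPM. In PrL the B6 libraries ran from 20.8 to 36.3 CPM (median 30.0), AJ from 14.3 to 26.5 CPM (median 20.2) and PWK from 4.86 to 8.46 CPM (median 6.54). B6 lay above PWK without overlap in each region. Syt15, a synaptotagmin that does not bind calcium, stood close to the limit of 1 CPM, with medians of 0.406, 0.243 and 0.417 CPM in S129 (CeA, NAcc and PrL) against 0.634 to 1.63 CPM in the other strains, and no library held more than 60 of its reads.

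A member was a unique DEG of a strain when that strain differed from all 7 others in the same direction. There were 6 such members in CeA, 6 in NAcc and 9 in PrL, and 19%, 17.6% and 26.7% of all genes were unique DEGs of some strain. Without the 16 libraries 1 unique DEG was left in CeA, and the share of all genes was not counted there. The CeA status of Stxbp4 and Syt15 given next was thus not kept by both. In the main fit the largest adjusted p of their 7 CeA contrasts was 0.0408 and 0.0322. Stxbp4 was a unique DEG in PWK in every region of the main fit, with mean log2 fold changes against the 7 others of -1.36, -1.30 and -1.30 (CeA, NAcc and PrL). Syt15 was one in S129 in every region (-1.35, -2.09 and -1.42). Stx17, which serves the fusion of autophagosomes with lysosomes, was one in B6 in NAcc (-0.46) and PrL (-0.32). In NAcc the B6 libraries had 24.4, 20.5, 21.5, 22.1 and 20.5 CPM where the others ran from 23.3 to 36.4 CPM (median 29.9), and in PrL 22.4 to 26.6 CPM where the others ran from 23.8 to 34.9 CPM. Each of these ranges overlapped slightly.

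In CeA the other unique DEGs were Rab3a, down-expressed in B6 (-0.31; 318 to 477 CPM against 409 to 610 CPM), Syn3, up-expressed in AJ (0.45; 24.5 to 29.4 CPM against 12.5 to 25.7 CPM), Stx3, up-expressed in PWK (0.46), and Syt4, down-expressed in CAST (-0.49; 107 to 192 CPM against 157 to 283 CPM). Rab3a marks synaptic vesicles ready for docking, and 1 of its 6 B6 libraries, at 318 CPM, lay below the others, which began at 449 CPM. In NAcc the remaining 3 were Rab3d, Stx4a and Stxbp2. Rab3d, the Rab3 of secretory granules, was down-expressed in NOD (-1.04), and its NOD libraries of 2.32 to 3.44 CPM were the only ones among the unique DEGs that did not overlap the other strains (3.97 to 13.8 CPM). Stx4a, of the plasma membrane, was up-expressed in NOD (0.40; 42.4 to 57.6 CPM against 29.6 to 52.1 CPM), and Stxbp2 was down-expressed in PWK (-1.45).

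In PrL the B6 strain was up-expressed for Stxbp2 (1.24) and for Syt9 (0.92), the calcium sensor known from limbic and striatal neurons. The Syt9 libraries of B6 ran from 15.3 to 35.1 CPM (median 19.2) while the 7 other strains spanned 6.48 to 18.5 CPM (median 11.9). The other unique DEGs of PrL were Stxbp6 in NOD (-0.58; 65.7 to 92.4 CPM against 63.1 to 197 CPM), Stx3 in WSB (-0.43; 13.3 to 15.5 CPM against 15.4 to 25.6 CPM), Syt12 in PWK (0.47) and Syt5 in CAST (0.46; 287 to 344 CPM against 180 to 309 CPM). Each of the 6 overlapped the range of the other strains.

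**Figure D3:**
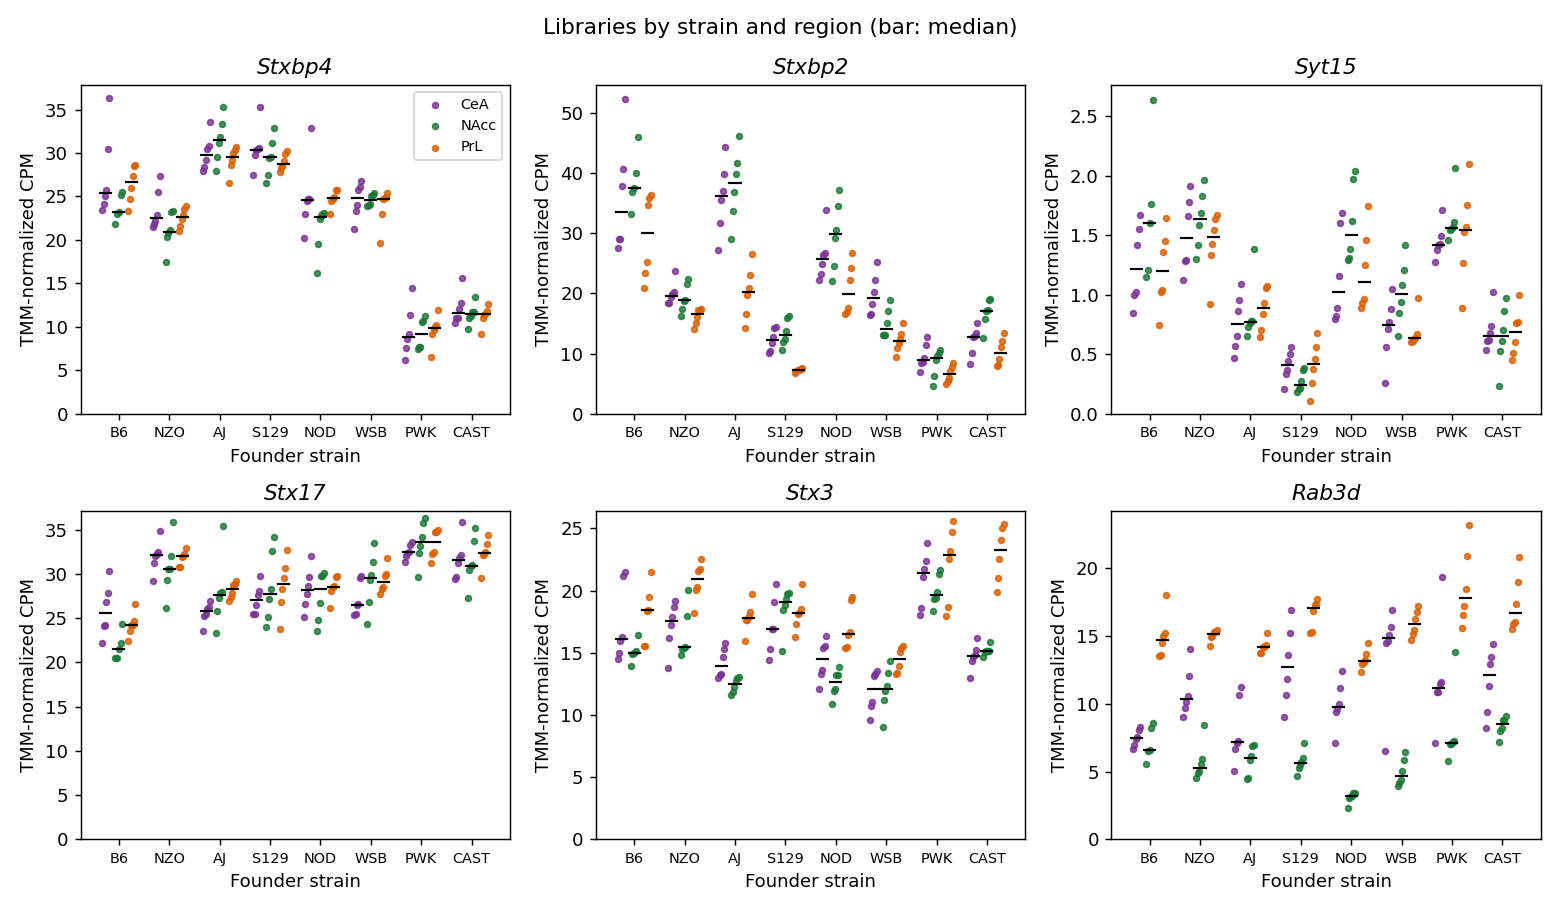
TMM-normalized CPM of every library (points) and the median (bar) by founder strain for Stxbp4, Stxbp2, Syt15, Stx17, Stx3 and Rab3d, with CeA in purple, NAcc in green and PrL in orange. PWK and CAST lie lowest for Stxbp4, S129 lowest for Syt15, and the NOD libraries of NAcc, at 2.32 to 3.44 CPM, lowest for Rab3d.

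Other members were among those with the widest range of strain means in only 1 or 2 regions. This ranking does not limit their strain differences to those regions. Cplx3 had the widest range in CeA (3.83 on the log2 scale), from a median of 0.664 CPM in CAST to 11.1 CPM in NZO. CAST was also at its low end in PrL, with a median of 8.58 CPM against 12.2 to 22.5 CPM elsewhere. Syt2 in CeA had medians from 23.2 CPM in S129 to 145 CPM in AJ, and within AJ from 19.5 to 252 CPM. In PrL its NZO libraries (8.57 to 12.6 CPM) lay below those of WSB, CAST and AJ (24.6 to 51.1 CPM). Syt6 (range 1.59 in CeA) and Vamp5 (1.60 in CeA) also ranged widely, as did Rab3b (1.28), Syt13 (1.27) and Syt17 (1.95) in NAcc, and Syt10 (1.14) and Stxbp6 (0.86) in PrL. Rab3c had low medians in NZO, of 454, 391 and 401 CPM in CeA, NAcc and PrL, where S129 had 744, 590 and 636 CPM, and in NAcc the NOD median of 360 CPM lay below that of NZO. Tray took its largest share of a member's variance for Vamp4 (24.9%), followed by Stx18 (16.0%) and Stx4a (13.5%), and tray was a term in every main fit.

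The first preference comparison asked which vesicle release genes set B6 apart from Low_Average. In CeA 11 members were higher in B6 and 20 lower, where 20.4% of all genes were higher and 21.3% lower. The median log2 fold change was -0.11 over the members and -0.01 over all genes tested. In NAcc 7 members were higher and 5 lower (16.9% and 15.3% of all genes). This split was 3 and 1 without B6 replicate 17 (12% and 10.5% of all genes) and 3 and 3 without B6 replicate 33 (12.6% and 11%). It was 7 and 9 by DESeq2 (16.8% and 18.1%) and 11 and 17 with the marker covariates described below (26.8% and 26.3%). The share of all genes thus moved as well. In PrL 8 were higher and 10 lower (18.2% and 19% of all genes).

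The 20 members that were lower in CeA of B6 held part of the core machinery. Stx1a was lower by -0.81 ± 0.25 (adjusted p = 0.0097), Syn1 by -0.45 ± 0.10, Syn2 by -0.44 ± 0.17, Syn3 by -0.20 ± 0.08, Rab3a by -0.32 ± 0.06, Vamp2 by -0.27 ± 0.07 and Syt1 by -0.27 ± 0.09. Snap25 (-0.19 ± 0.09, adjusted p = 0.0847), Cplx1, Cplx2, Cplx3, Rab3b, Rab3c and Syt2 did not pass. Others that fell were Rab3d, Snap47, Snap91, Stx17, Stx18, Stxbp5, Syt3, Syt5, Syt7, Syt13, Syt16 and Syt17, the last with the largest difference (-1.04 ± 0.31). The 11 that rose were Snap23, Vamp1, Vamp3, Vamp5, Vamp8, Stx2, Stx3, Stxbp2, Stxbp3, Stxbp4 and Syt15, of which Vamp1 alone is a synaptic vesicle SNARE. By library, Stx1a ran from 32.3 to 114 CPM in B6 (median 85), and the 6 Low_Average strains had medians of 87.0 (AJ) to 175 CPM (NZO). Syn1 ran from 288 to 491 CPM in B6 (median 412) against strain medians of 457 to 626 CPM.

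The marker genes of other cells moved with this comparison. In CeA the log2 ratio of striatal to pallial markers had a median of 2.69 in B6 (range -0.561 to 3.77), of 2.90 in AJ and of -1.23 in NOD, and oligodendrocyte markers summed to a median of 7752 CPM in B6 (5330 to 16518 CPM) against medians of 1862 to 4727 CPM in the other strains. All 7 oligodendrocyte markers were higher in B6 than in Low_Average in CeA. Stx1a had a median of 51.9 CPM (31.5 to 77.7) in the 9 CeA libraries nearest to NAcc, of 133 CPM (69.7 to 260) in the 36 nearest to CeA and of 162 CPM (135 to 286) in the 3 nearest to PrL, and Syn1 had medians of 390, 576 and 656 CPM in these sets. Snap25 had medians of 1790, 1897 and 2117 CPM, Syt2 of 140, 36.7 and 19.1 CPM and Cplx3 of 2.73, 3.91 and 3.57 CPM, so the members did not share an order over the sets. The part of the marker differences in the B6 result was not tested here. In alternatives added after the data were seen, B6 differed in CeA for 16 members without the 16 libraries (7 higher, 9 lower, where 12.9% and 13.3% of all genes were called), and for 11 members with the marker ratio and the oligodendrocyte sum as covariates (5 higher, 6 lower, where 12.5% and 12.9% were called). Of the 31 members, 15 were still called in the first and 9 in the second. These 9 were Rab3a, Stx3, Stx17, Stx18, Stxbp2, Syn1, Syt3, Syt7 and Syt15. Rab3a, Stxbp2, Syn1, Syt3 and Syt7 were called in both alternatives. Rab3c, which is not among the 31, was called higher in B6 in both (0.39, adjusted p = 0.0008, and 0.39, adjusted p = 0.0011). Stx1a was not called in either (-0.54, adjusted p = 0.0581, and -0.21, adjusted p = 0.448). With the covariates the sign turned for Syn2 (0.08, adjusted p = 0.542) and Syt16 (0.02, adjusted p = 0.877), and neither was called.

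**Figure D4:**
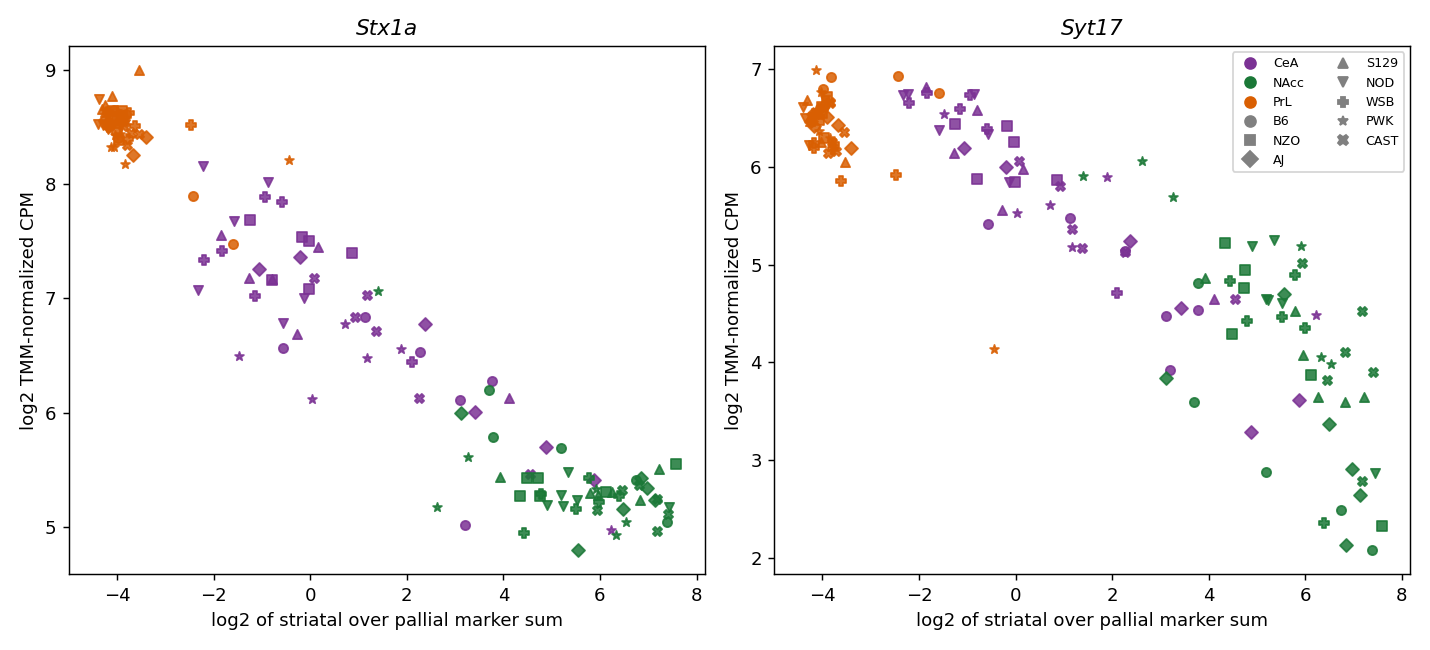
Level of Stx1a and Syt17 (vertical axis, log2 of TMM-normalized CPM) against the log2 ratio of striatal over pallial marker sums (horizontal axis) in the 143 libraries, with colour for region and symbol for strain. The CeA libraries spread from -2.33 to 6.23. They overlap the NAcc libraries at the right (1.40 to 7.58) and the PrL libraries at the left (-4.40 to -0.438).

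Members that differed in B6 with the same sign in all 3 regions were Stxbp2 and Syt15, which were higher, and Stx17 and Snap91, which were lower. The share of all genes that did so, in B6 or in PWK, was not counted. Stxbp2 was higher by 0.87 ± 0.11, 0.95 ± 0.10 and 1.09 ± 0.11 (CeA, NAcc and PrL; adjusted p = 1.7e-08, 8.9e-10 and 2.1e-11). Without the 16 libraries its values were 0.75, 0.94 and 1.02, and with the covariates 0.59, 1.02 and 0.91. Stx17 was lower by -0.14 ± 0.04, -0.43 ± 0.08 and -0.29 ± 0.04. Its CeA difference was not called without the 16 libraries (-0.12, adjusted p = 0.136). Snap91, the clathrin assembly protein that retrieves vesicle membrane, was lower by -0.37 ± 0.11, -0.22 ± 0.08 and -0.23 ± 0.07. In NAcc its B6 libraries had 225, 214, 300.2, 262 and 195 CPM, and the call was lost without replicate 9, 17 or 41 (-0.18, -0.17 and -0.19; adjusted p = 0.108, 0.148 and 0.101). Its CeA difference was not called with the covariates (-0.08, adjusted p = 0.479). Syt15 was higher by 0.66 ± 0.17, 0.94 ± 0.17 and 0.55 ± 0.18, and lost its call in CeA without the 16 libraries (0.49, adjusted p = 0.144) and in PrL with the covariates (0.46, adjusted p = 0.0552).

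In PrL the B6 strain was lower for part of the core machinery, with Stx1a at -0.28 ± 0.08 (adjusted p = 0.0046), Snap25 at -0.24 ± 0.07, Cplx1 at -0.29 ± 0.10 and Cplx2 at -0.16 ± 0.06. Without the 16 libraries Stx1a was at -0.12 (adjusted p = 0.119) and Cplx2 at -0.13 (adjusted p = 0.0684), and neither was called, while Snap25 (-0.21) and Cplx1 (-0.37) were. Of the 4 Rab3 genes, 2 were higher in B6 in PrL and none was lower. Rab3b and Rab3c were higher there without the 16 libraries (0.49, adjusted p = 2.0e-05, and 0.41, adjusted p = 2.3e-05) and with the covariates (0.42 and 0.51). In NAcc, Cplx2 was the only core gene called in the main fit, and it was higher in B6 (0.43 ± 0.15, adjusted p = 0.0205). There Stx1a was also called higher without the 16 libraries (0.35, adjusted p = 0.02) and with the covariates (0.39, adjusted p = 0.0032). With the covariates Cplx1, Rab3a, Syt2 and Vamp1 were called lower in NAcc (-0.42, -0.20, -0.61 and -1.37). In PrL, Syt9 had the next largest difference after Stxbp2 (0.99 ± 0.11, adjusted p = 7.9e-10), while in CeA and NAcc it was not called (-0.28 ± 0.19 and 0.21 ± 0.19).

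The second preference comparison set PWK against the same Low_Average samples, so the comparisons of B6 and PWK share their reference. In CeA 6 members were higher in PWK and 10 lower (19.4% and 19.6% of all genes), in NAcc 9 and 6 (19.9% and 18.9% of all genes), and in PrL 10 and 5 (24.3% and 22.7% of all genes). In every region Stxbp4 was lower (-1.32 ± 0.11, -1.28 ± 0.08 and -1.26 ± 0.07; adjusted p = 2.7e-13, 4.7e-17 and 6.9e-20), as was Stxbp2 (-1.02 ± 0.14, -1.32 ± 0.13 and -1.03 ± 0.16). Stx3, Stx17, Stx18, Syt9 and Syt15 were higher in every region. Stx3, a target SNARE of polarised cells and ribbon synapses, rose by 0.49 ± 0.07, 0.48 ± 0.05 and 0.28 ± 0.06, Syt9 by 0.44 ± 0.17, 0.71 ± 0.16 and 0.46 ± 0.12, and Stx18, of the endoplasmic reticulum, by 0.17 ± 0.05, 0.25 ± 0.05 and 0.16 ± 0.05. Syt9 in CeA (0.46, adjusted p = 0.0605) and Stx17 in NAcc (0.17, adjusted p = 0.107) were not called without the 16 libraries.

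Of the core machinery, PWK was lower than Low_Average for Stx1a in CeA (-0.80 ± 0.25) and PrL (-0.23 ± 0.08), for Syn3 in CeA (-0.41 ± 0.08) and PrL (-0.27 ± 0.08) and for Cplx3 in CeA (-1.09 ± 0.44), and higher for Cplx2 in PrL (0.18 ± 0.06). The calls were lost without the 16 libraries for Cplx2 in PrL (0.08, adjusted p = 0.261), Syn3 in PrL (-0.12, adjusted p = 0.188) and Cplx3 in CeA (-0.88, adjusted p = 0.195). With the covariates they were lost for Cplx2 in PrL (0.13, adjusted p = 0.0757), Syn3 in PrL (-0.15, adjusted p = 0.0665) and Stx1a in PrL (-0.15, adjusted p = 0.076). Set side by side, the CeA differences of B6 and PWK from the shared Low_Average were -0.81 and -0.80 for Stx1a, -0.49 and -0.37 for Syt7, 0.87 and -1.02 for Stxbp2 and -0.14 and 0.19 for Stx17. The Stx1a libraries of PWK in CeA ran from 31.5 to 110 CPM (median 89.7), and the log2 marker ratio there had a median of 0.944 (-1.48 to 6.23). Without the 16 libraries the Stx1a value in PWK was -0.68 (adjusted p = 0.0035) and with the covariates -0.51 (adjusted p = 0.0135).

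**Figure D5:**
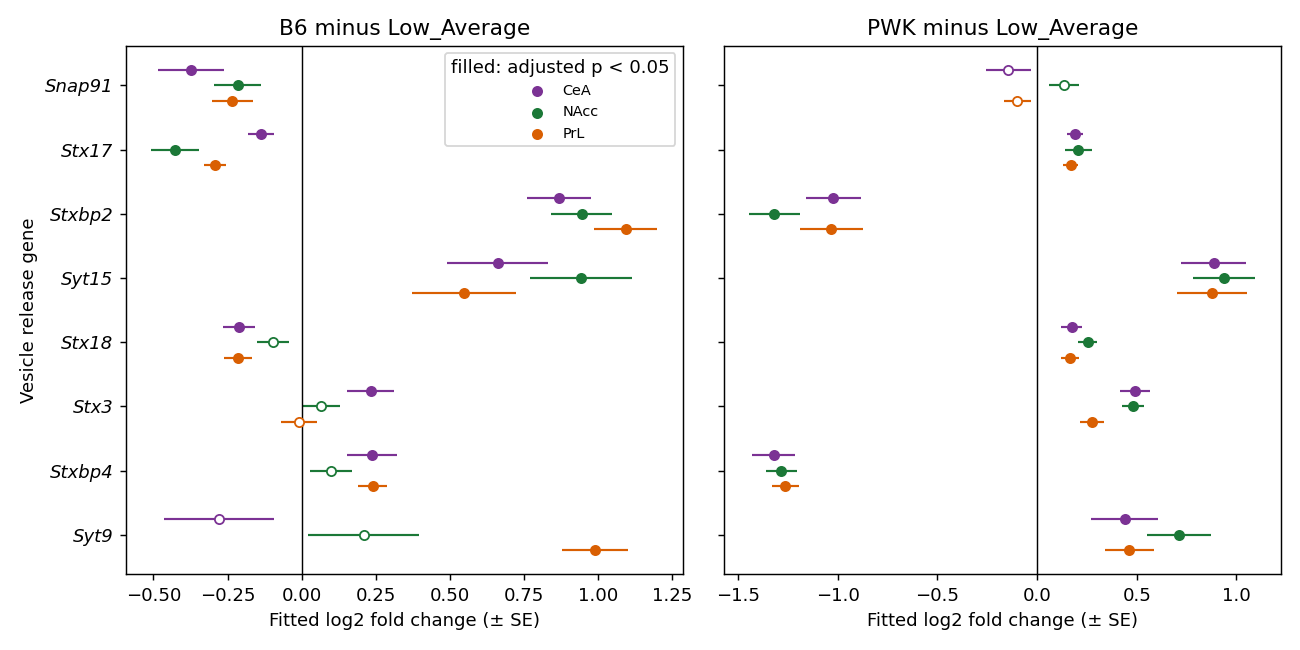
Fitted log2 fold change with its standard error for the 8 members that differed from Low_Average with the same sign in all 3 regions for B6 (left) or PWK (right), with CeA in purple, NAcc in green and PrL in orange. Filled points passed an adjusted p of 0.05 in limma. Stxbp2 lies at 0.87 to 1.09 in B6 and at -1.32 to -1.02 in PWK, and Stx17 below 0 in B6 and above 0 in PWK.

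Strain differences depended on the region for 24 members by the limma F-test of the interaction (42.1%), where 34.5% of all genes passed. The largest F-statistics were those of Rab3d (adjusted p = 1.1e-05), Stx3 (0.000165), Syt12 (0.000623), Syt2 (0.000713), Stx1a (0.000948), Stxbp2 (0.0018), Syt9 (0.00194) and Syt17 (0.00219). Rab3d was lower in B6 than in Low_Average in CeA (-0.53 ± 0.16), higher in NAcc (0.41 ± 0.13) and not called in PrL (-0.05 ± 0.05). Its CeA difference was not called without the 16 libraries (-0.53, adjusted p = 0.0641) or with the covariates (-0.19, adjusted p = 0.196). Its NAcc difference was called in both (0.41, adjusted p = 0.0035, and 0.47, adjusted p = 0.0016). By fitted mean its lowest strain was B6 in CeA (6.65 to 8.27 CPM, median 7.47), NOD in NAcc and NOD in PrL (12.3 to 14.4 CPM, median 13.2). Stx3 was highest in PWK in CeA and NAcc (medians 21.4 and 19.6 CPM), and in PrL CAST and PWK overlapped at the high end (medians 23.3 and 22.9 CPM, with ranges of 19.9 to 25.3 and 17.9 to 25.6 CPM). Syt12 was highest in PWK in CeA and PrL (medians 47.6 and 56.5 CPM) and in CAST in NAcc (63.0 CPM). Syt17 in B6 was the lowest of the strains in CeA and NAcc (medians 29.2 and 7.37 CPM) and the highest in PrL (109 CPM), where the strain effect was not called for this gene. It was called there without the 16 libraries (adjusted p = 0.000152) and with the covariates (adjusted p = 0.000899), with B6 above Low_Average by 0.39 and 0.62. In CeA the strain effect of Syt17 was called in neither alternative (adjusted p = 0.0746 and 0.648). The CeA difference of B6 was then -0.675 (adjusted p = 0.0871) and -0.23 (adjusted p = 0.296). In NAcc the strain effect was not called without the 16 libraries (adjusted p = 0.137) and was called with the covariates (adjusted p = 2.0e-05). The interaction was called for 14 members without the 16 libraries, and the share of all genes was not counted there. With mouse as a block Vamp5, Snap25 and Syt1 lost the interaction call (adjusted p = 0.0593, 0.0686 and 0.107) and Cplx3 and Stx8 gained it (0.0211 and 0.0386).

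No member passed the test between females and males in any region by limma, edgeR or DESeq2, with 2, 1 and 1 members at an unadjusted p below 0.05 in CeA, NAcc and PrL, where 0.142%, 0.0881% and 0.102% of all genes were called. The largest difference between the sexes in a member was 0.324 on the log2 scale.

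The genes around the release machinery were counted in the same tests, where 39.3% of all genes were lower and 42.9% higher in NAcc than in PrL. Of 21 active zone scaffold genes, which hold the release site together, 17 were lower in NAcc than in PrL and 3 higher. Those with the smallest p were Unc13c (2.90 ± 0.08), Ppfia3 (-0.97 ± 0.03), Rims4 (-0.93 ± 0.03) and Unc13b (-1.63 ± 0.06). In CeA 13 of the 21 were lower in B6 than in Low_Average and 2 higher, where 21.3% and 20.4% of all genes were called. The striatal to pallial marker ratio and the oligodendrocyte markers of B6 given above moved with this count, and their part in it was not tested. In PWK none of the 21 was higher in CeA and 3 were lower (19.4% and 19.6% of all genes). Of 15 genes of SNARE disassembly and priming, 11 were lower in NAcc than in PrL and 4 higher, led by Doc2b (2.92 ± 0.07), Doc2a (-2.41 ± 0.11), Napb (-0.94 ± 0.04) and Rph3a (-1.31 ± 0.06). Doc2a and Doc2b, calcium-binding proteins of slow and spontaneous release, thus differed in opposite directions.

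Of 18 vesicle membrane genes, 9 were lower in NAcc than in PrL and 7 higher, led by Sv2c (3.35 ± 0.09), the GABA transporter Slc32a1 (2.07 ± 0.06), the glutamate transporter Slc17a7 (-7.79 ± 0.32) and Syngr1 (-1.02 ± 0.04). Of 20 endocytosis genes, 14 were lower in NAcc than in PrL and 4 higher, and Epn1 (-0.75 ± 0.03), Dnm1 (-1.03 ± 0.04), Ap2m1 (-0.53 ± 0.02) and Sh3gl2 (-1.39 ± 0.06) had the smallest p. In CeA 10 of these 20 were lower in B6 than in Low_Average and 2 higher (21.3% and 20.4% of all genes), beside the same marker values of B6. In NAcc 1 was higher and 1 lower (16.9% and 15.3% of all genes).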

How the data were processed

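RNA was measured by sequencing of poly(A) libraries (TruSeq Stranded mRNA) from 48 mice and 3 regions on 3 sequencing trays balanced by sex, strain and region. The authors trimmed reads with Trimmomatic, checked them with FastQC, aligned them with STAR 2.7.3a and deposited raw counts per gene for 55414 genes and 240 libraries, in which trays 2 and 3 have 2 runs. They also deposited log2 CPM values made with edgeR 3.38.1 for 14785 genes and 143 libraries, which the counts gave again within 5e-06. The notes name both mm10 and GRCm39, and coordinates and exon lengths used here are from GRCm38.

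The counts of the 143 libraries of the study were analysed in R 4.3.3 with TMM factors (edgeR 4.0.16) and voom (limma 3.58.1, prior count 0.5) for 14764 genes with a mean of at least 1 CPM. The study's upper limit of 50000 counts was not applied, since it removes Cplx2, Snap25 and Syt1. Within a region the model held strain, sex and tray, and a joint model of all libraries held region by strain, sex and tray. P-values are from limma with Benjamini-Hochberg adjustment over all genes (and over all 28 strain pairs, or both Low_Average contrasts, of a region), with a threshold of 0.05. Replicates were different mice. The regions of a mouse share an animal, and the residuals of its libraries had a median correlation over genes of 0.0658 for CeA with NAcc, 0.0338 for CeA with PrL and -0.00496 for NAcc with PrL. Mouse as a block was fitted as an alternative, beside edgeR's quasi-likelihood test, DESeq2 1.42.0, RLE factors, other filters, no tray term, both runs added, sample quality weights and each NAcc B6 replicate left out. Figures were drawn with matplotlib 3.10.9 in Python 3.11.15. The main limma fits within regions were tested on simulated data with known differences in PWK. The joint model was run on the same data, which held no region difference, and the alternative fits were not tested in this way.

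The members, the gene lists and the tests were chosen with earlier results of these data known. Genes named are the core machinery, the unique DEGs, the 8 members with the widest strain range per region among those past the F-test, the 5 highest and 5 lowest per region pair, those with the same sign in all regions against Low_Average and the 8 largest interaction statistics, with up to 4 genes of each pathway list by smallest p. Others named were chosen after their values were seen. Some members enter the counts and medians but are not reported here by name or value.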

Additional observations from a re-analysis of the deposited data

Results flagged for a closer look

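Of 168 groups of libraries tested over the unique DEGs with Dixon's ratio, 11 held a library far from the others, where chance gives about 1 in 20. In CeA, Rab3a was at 318 CPM in B6 replicate 1 (the others at 449 to 477 CPM) and at 495 CPM in NOD replicate 15 (578 to 604 CPM). In NAcc, Syt15 was at 1.39 CPM in AJ replicate 21 (0.655 to 0.781 CPM) and at 2.06 CPM in PWK replicate 24 (1.46 to 1.61 CPM). Rab3d was at 2.32 CPM in NOD replicate 23 (3.04 to 3.44 CPM) and at 13.8 CPM in PWK replicate 48 (5.74 to 7.24 CPM), and Stx4a was at 52.1 CPM in B6 replicate 41 (33.5 to 36.2 CPM). In PrL, Syt9 was at 18.5 CPM in AJ replicate 45 (8.11 to 10.2 CPM), Syt15 at 0.969 CPM in WSB replicate 27 (0.601 to 0.668 CPM), and Syt5 at 197 CPM in NZO replicate 18 (243 to 270 CPM) and at 191 CPM in WSB replicate 11 (213 to 225 CPM).

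The strain differences of 24 members differed between regions by the limma F-test of the interaction. The adjusted p was 1.1e-05 for Rab3d, 0.000165 for Stx3, 0.000623 for Syt12, 0.000713 for Syt2, 0.000948 for Stx1a, 0.0018 for Stxbp2, 0.00194 for Syt9 and 0.00219 for Syt17. It was 0.00533 for Syt14, 0.00604 for Snap23, 0.00781 for Syt7, 0.00832 for Syn3, 0.0155 for Syt16, 0.0218 for Stx2, 0.0219 for Vamp3 and 0.0229 for Vamp2. For Vamp5 it was 0.0242, for Stx7 0.0243, for Cplx2 0.0249, for Snap25 0.0276, for Snap29 0.0334, for Syt10 0.0342, for Syt1 0.041 and for Rab3c 0.0491. With mouse as a block the values were 0.0593 for Vamp5, 0.0686 for Snap25 and 0.107 for Syt1, which were not called, and 0.0211 for Cplx3 and 0.0386 for Stx8, which were.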

How the results depend on the processing

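With the marker covariates B6 against Low_Average in CeA turned sign for Syn2 (0.08) and Syt16 (0.02), which were then not called. Alternative values were tracked for the unique DEGs, the highest and lowest members per region pair and those with the same sign in all regions against Low_Average. Each was followed only in the comparison that picked it. Of these values none changed sign, 1109 kept their side of the threshold and 58 lost it. The counts of members with a strain effect or a region difference stayed within 1.5 times under every alternative run. B6 against Low_Average in NAcc moved from 12 members to 6 with no filter on low counts, 7 with no tray term, 24 with sample quality weights and 28 with the marker covariates. Its split of 7 higher and 5 lower (16.9% and 15.3% of all genes) became 5 and 1 with no filter (8.39% and 6.46%). It became 6 and 1 with no tray term (14.9% and 13.2%), 11 and 13 with the weights (25.2% and 22.9%) and 11 and 17 with the covariates (26.8% and 26.3%). Leaving out a NAcc B6 replicate gave 4 to 14 members, with 4 without replicate 17 and 6 without replicate 33. Of all genes, 12% were higher and 10.5% lower without replicate 17, and 12.6% and 11% without replicate 33. Sample quality weights also gave 12 unique DEGs in CeA (main 6), 15 in PrL (main 9), 491 pairwise calls in NAcc (main 301) and 49 interactions (main 24), and no filter gave 2 unique DEGs in CeA. Both alternatives with markers were chosen after seeing the data. Without the 16 libraries there were 16 members for B6 in CeA (main 31), 258 pairwise calls (main 416) and 1 unique DEG in CeA and 14 interactions, and with the covariates 11 for B6 in CeA, 24 for PWK in NAcc (main 15), 550 pairwise calls in NAcc and 14 unique DEGs in PrL. The 24 for PWK were 12 higher and 12 lower, where 22.6% and 21.9% of all genes were called. For unique DEGs, pairwise calls and interactions the share of all genes was not counted under the alternatives. These counts therefore do not set the members apart from other genes. The cause of the changes was not tested. With no filter the median of all genes shifted by -0.12 (CeA against PrL) and -0.11 (NAcc against PrL). DESeq2 split B6 in NAcc into 7 higher and 9 lower (16.8% and 18.1% of all genes). Members of low level, such as Syt15, are limited by depth.

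With mouse as a replicate block the tests called 41 members between CeA and NAcc (main 41), 45 between CeA and PrL (main 44), 47 between NAcc and PrL (main 46) and 23 interactions (main 24), so the block moved no count by more than 1 member, but Vamp5, Snap25 and Syt1 lost the interaction call and Cplx3 and Stx8 gained it. With the library that the study left out, 144 in all, 8 members were called for B6 in NAcc and 18 interactions.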
